A study of Homo sapiens with 6 samples.

Results

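Untreated HK-2 cells were described here by the level of every gene in their RNA. HK-2 is an established line of immortalised epithelial cells from the proximal tubule of an adult human kidney. A gene was taken as a member of the baseline transcriptome if it carried a symbol and averaged at least 1 RPKM over the 3 untreated libraries. RPKM is the reads of a gene divided by its exon length in kilobases and by the library's total of reads assigned to genes, in units of 1000000. This rule took 11869 of the 25007 genes with a symbol, or 47.5%, out of 34157 genes in all. The study had 6 libraries: 3 came from HK-2 cells exposed for 48 hours to GDF5, a secreted growth factor, at 100 ng/ml, and 3 from untreated HK-2 cells. The GDF5 libraries were not used. The labels give no passage, medium or density, and do not say whether the 3 untreated libraries came from separate cultures, so the spread between them may be technical. All are of 1 cell line, and no other kidney sample stands beside them.

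Proximal tubule cells reclaim most of what the glomerulus filters. They take up filtered protein through the giant receptors megalin and cubilin, move glucose, phosphate and bicarbonate through solute carriers, make glucose, burn fatty acids and hold a brush border, a program kept on by HNF4A and its partners. After injury the same cells lose much of that program, display HAVCR1 (kidney injury molecule), re-enter the cell cycle and may gain matrix and mesenchymal genes. Tubule cells placed in culture are known for a similar loss.

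The untreated libraries held 47972518, 45101861 and 56017392 reads assigned to genes (replicates 1, 2 and 3), of which 8.19%, 8.71% and 7.92% came from mitochondrial DNA. Between any pair of libraries, 93.7% to 94.1% of members lay within 1.25-fold. Counts were divided by 2 for a chi-square, because both mates of a pair may have been counted. It had a mean of 2.58 to 4.08 and a median of 0.844 to 1.16 per gene over 16887 genes. Both lay above what counting error alone would give, so the excess spread was not limited to a few genes. Where only 1 mate was counted, the division makes both values too small. Among genes from 100 to under 1000 RPKM the median spread of 2.74% exceeded the median counting error of 0.643%, and no library was merged with another. Levels below are given as RPKM, as mean ± SD over the 3 libraries (n = 3) or library by library in the order of the replicate numbers. No comparison between groups was made, so no p-values are given, and counting intervals would cover counting error only.

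Of the 6 genes used to mark these cells, 5 were members and LRP2 was not. FN1, which encodes the matrix protein fibronectin, had 2367, 2233 and 2333 RPKM, rank 16 of all members. HAVCR1 had 119, 118 and 114 RPKM, and the epithelial adhesion molecule EPCAM had 115, 113 and 107 RPKM. The intermediate filament gene VIM (vimentin) had 84.1, 86.4 and 82.3 RPKM. PAX8, a transcription factor of the kidney epithelial lineage, had 38.0, 33.4 and 39.5 RPKM. HAVCR1 and EPCAM overlapped between libraries, while FN1 stood above both, VIM below both and PAX8 below VIM in every library. LRP2, which encodes megalin, was at or near 0, with 2 reads in replicate 2 and none in replicates 1 and 3. A count of 3 reads over the 3 libraries would be worth 0.00124 RPKM for a gene of its length, and its mean was 0.000918 RPKM. The kidney epithelial origin of the line was matched by PAX8 and EPCAM, and not by megalin. HAVCR1 is also on the injury list below, and FN1 and VIM are on the mesenchymal list. In GENCODE 29 on GRCh38, FN1 lies on the minus strand at chr2:215360440-215436172, HAVCR1 on the minus strand at chr5:157029413-157059119, EPCAM on the plus strand at chr2:47345158-47387601, VIM on the plus strand at chr10:17228259-17237593, PAX8 on the minus strand at chr2:113215997-113278950 and LRP2 on the minus strand at chr2:169127109-169362685. More than 10% of VIM's exon bases are shared with genes of the opposite strand, so its value is uncertain if the authors' counting ignored strand.

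Levels ran over 4 orders of magnitude among members, with most genes in the lower part. Between 1 and 10 RPKM lay 7933 genes, between 10 and 100 RPKM lay 3700, between 100 and 1000 RPKM lay 216, and 20 reached 1000 RPKM. Those 20 held 34.7% of all RPKM and 12.8% of all reads, and most were encoded in mitochondrial DNA. MT-CO1, a subunit of cytochrome c oxidase, was highest at 13782 ± 522 RPKM, followed by MT-CO3 at 11311 ± 617 RPKM and the ribosomal RNA gene MT-RNR2 at 8403 ± 622 RPKM. The 100 highest genes held 44.9 ± 0.910% of all RPKM, and 21.6 ± 0.192% once mitochondrial genes were left out.

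Among protein-coding genes of the nuclear genome, the top of the order was held by actin partners, iron storage, matrix and translation. TMSB10, an actin-binding thymosin, had 3136, 3297 and 3270 RPKM, above all others in every library. FTL, the light chain of ferritin, had 2663, 2776 and 2680 RPKM, and FN1 followed with no overlap. Next came the thymosin TMSB4X at 1248 ± 30.3, the lysosomal saposin precursor PSAP at 902 ± 14.1, the actins ACTB at 844 ± 38.4 and ACTG1 at 837 ± 38.4, the elongation factor EEF1A1 at 785 ± 10.6, the glycolytic enzyme GAPDH at 749 ± 26.3 and the ribosomal protein RPL41 at 713 ± 19.1 RPKM. The ranges of ACTB and ACTG1 overlapped, as did those of EEF1A1 and GAPDH and of GAPDH and RPL41. The first of each pair was higher in every library. The metallothionein MT2A (554 ± 21.8), the elongation factor EEF2 (526 ± 19.5), the ribosomal protein RPS2 (503 ± 7.16) and the chaperone HSP90AB1 (498 ± 4.40) were also among the 15 highest. MT2A overlapped with EEF2, and RPS2 with HSP90AB1.

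**Figure D1:**
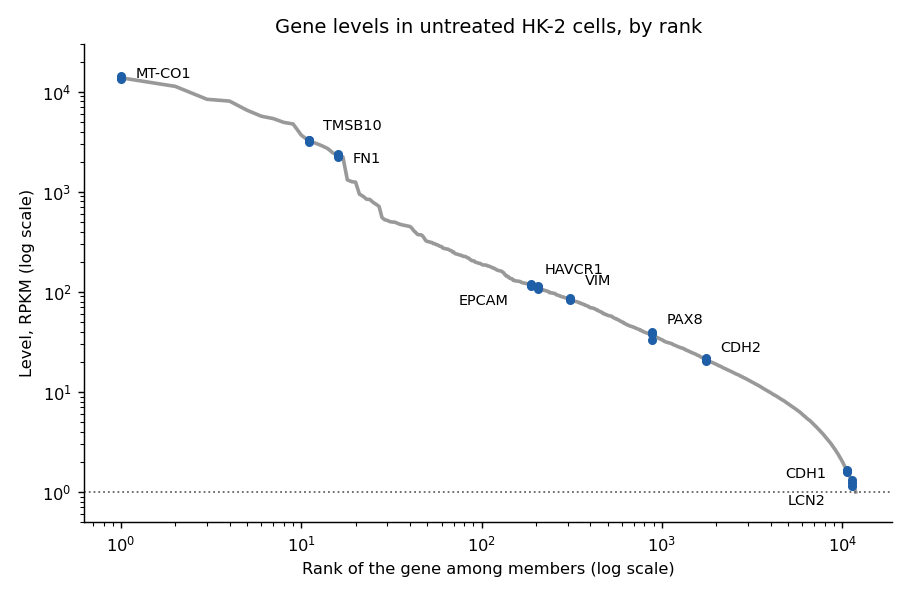
Level in RPKM against rank for the 11869 members, both on log scales. The grey line is the mean, the blue points are the 3 untreated libraries for selected genes, and the dotted line marks 1 RPKM. FN1 stands at rank 16, HAVCR1, EPCAM and VIM between ranks 187 and 309, and CDH1 and LCN2 at the far end.

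Of the 100 highest nuclear protein-coding genes, all at or above 163 RPKM, 31 encoded cytosolic ribosomal proteins. A further 9 encoded actins, tubulins or actin-binding proteins, 6 ferritin or antioxidant proteins, 5 glycolytic enzymes, 4 heat shock proteins, 4 S100 proteins or annexins, and 3 matrix or adhesion proteins (FN1, LGALS1 and SPARC). No keratin was among them, and VIM ranked 309. The group also held genes better known from other tissues, picked here after their values were seen. UCHL1, a deubiquitinating enzyme abundant in neurons, had 222, 236 and 247 RPKM. IGFN1, an immunoglobulin-like and fibronectin domain gene known from skeletal muscle, had 203, 181 and 201 RPKM. TNFSF10, the death ligand TRAIL, had 234, 223 and 221 RPKM. Each of these was high in all 3 libraries.

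Protein-coding genes made up 10781 of the members, which is 64.6% of the 16678 protein-coding genes with a symbol. The rest comprised 513 pseudogenes, 296 long non-coding RNAs, 254 small RNA genes, 17 genes encoded in mitochondrial DNA, 7 with no match in GENCODE 29 and 1 of another type. Pseudogenes such as MTATP6P1 (1263 RPKM), TMSB4XP8 (469 RPKM) and EEF1A1P5 (464 RPKM) are near copies of high genes, and their values and those of their parents are uncertain to the extent that reads were shared out between copies. Families needed by every cell were nearly complete. Of the cytosolic ribosomal protein genes with a value, 83 of 85 were members, with a median of 114 RPKM over the 85. The counts were 74 of 77 for mitochondrial ribosomal proteins and 34 of 37 for proteasome subunits. Zinc finger genes named ZNF, a large family of transcription factors, had 367 members of 490, or 74.9%.

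Silent families were as plain beside the 64.6% of protein-coding genes that were members. Only 1 of 67 olfactory receptor genes with a value (OR3A2, 4.14 RPKM) and 1 of 12 keratin-associated protein genes were members, as were 2 of 28 voltage-gated potassium channel genes. Among families with a role in tubule detoxification and transport, the counts were 10 of 45 for cytochromes P450, 1 of 10 for UDP-glucuronosyltransferases (UGT2B7), 5 of 14 for the SLC22 organic ion transporters and 36 of 47 for the mitochondrial carriers SLC25. In all, 1367 genes with a symbol had no read in any untreated library, and 5976 had a mean above 0 and under 0.1 RPKM. For a gene with 1000 bases of exon, 3 reads in a library are worth 0.0536 to 0.0665 RPKM, so levels under that were not distinguishable from 0 in a library.

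Markers of the proximal tubule were members at shares below that of protein-coding genes at large. Of 18 genes of endocytosis and brush border with a value, 9 were members (50%), of 20 transporter genes 8 (40%) and of 24 metabolic enzyme genes 9 (37.5%), beside 47.5% of all genes with a symbol and 64.6% of the protein-coding ones. Names without a value are left out of these shares. Among them are the transporters SLC22A6, SLC22A8, SLC5A12, SLC6A19 and SLC13A1 and the enzymes G6PC1 and CYP4A11. No kidney tissue was at hand to set the levels against. The scaffold and membrane-bound peptidase genes were the high ones. EZR (ezrin, which links the brush border to actin) had 120, 124 and 123 RPKM. PDZK1IP1 had 67.1, 69.3 and 70.3 RPKM, and PDZK1, a scaffold for apical transporters that binds it, had 34.8, 40.8 and 35.0 RPKM. The peptidases DPP4 and ENPEP had 17.1 ± 0.516 and 17.0 ± 0.699 RPKM and overlapped. DAB2, the adaptor of megalin, had 6.67 ± 0.309 RPKM although its receptor was near 0. CUBN (cubilin) had 106 reads over the 3 libraries, or 0.0540 ± 0.0186 RPKM, and its partner AMN (amnionless) had 0.539 ± 0.0467 RPKM. The brush border genes ALPL (0.107 ± 0.0410), VIL1 (0.0315 ± 0.00891) and ANPEP (0.0184 ± 0.0160) were also below the level, and the last had no read in replicate 3. AMN and VIL1 share over 10% of their exon bases with a gene of the opposite strand.

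The highest transporters were those of the basolateral membrane, but carriers of both membranes were among the lowest. ATP1B1, the beta subunit of the sodium pump, had 58.6 ± 2.55 RPKM. SLC2A2, the low-affinity glucose transporter of proximal tubule and liver, had 28.8, 26.9 and 26.4 RPKM, while SLC2A1, the glucose transporter of most dividing cells, had 31.7, 30.7 and 31.9 RPKM. SLC2A1 was higher in every library, by a mean ratio of 1.15 ± 0.0541. SLC4A4, the basolateral sodium bicarbonate cotransporter, had 17.2 ± 0.183 RPKM, and the apical phosphate and urate transporters SLC17A1 and SLC17A3 had 7.20 ± 0.428 and 7.15 ± 0.224 RPKM. The phosphate cotransporters SLC34A1 and SLC34A3 had 0.374 ± 0.0701 and 0.408 ± 0.0552 RPKM. The apical glucose cotransporter SLC5A2 had 0.297 ± 0.0868 RPKM, and SLC5A1 had 2 reads in all. The water channel AQP1 had 18 reads over the 3 libraries, or 0.0364 ± 0.00846 RPKM, and the organic anion transporter SLC22A7 had none. SLC13A3 and SLC22A2, carriers of the basolateral membrane as SLC22A7 is, had 0.0264 ± 0.0171 and 0.0283 ± 0.0117 RPKM. SLC5A2 and AQP1 share over 10% of their exon bases with another gene.

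Metabolic enzymes also ranged from clear members to genes near 0. GPX3, a secreted glutathione peroxidase made mainly in the proximal tubule, had 29.6, 30.4 and 31.5 RPKM. MIOX, which opens myo-inositol and is nearly restricted to that segment, had 23.3, 23.5 and 26.4 RPKM. UGT2B7, a glucuronidating enzyme, had 15.6 ± 1.10 RPKM, and CYP24A1, which inactivates vitamin D, had 10.1 ± 0.123 RPKM. CYP27B1, which activates it, had 0.582 ± 0.114 RPKM. The gluconeogenic genes were near 0: PCK1 had 10 reads in all, FBP1, which overlaps a gene of the opposite strand, had 4. The mitochondrial isozyme PCK2 had 4.91 ± 0.631 RPKM, a ratio of means of 528 to PCK1. HAO2 and AGXT2 had no read in any library, and 3 reads over the group would be worth 0.0107 and 0.00509 RPKM for them.

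**Figure D2:**
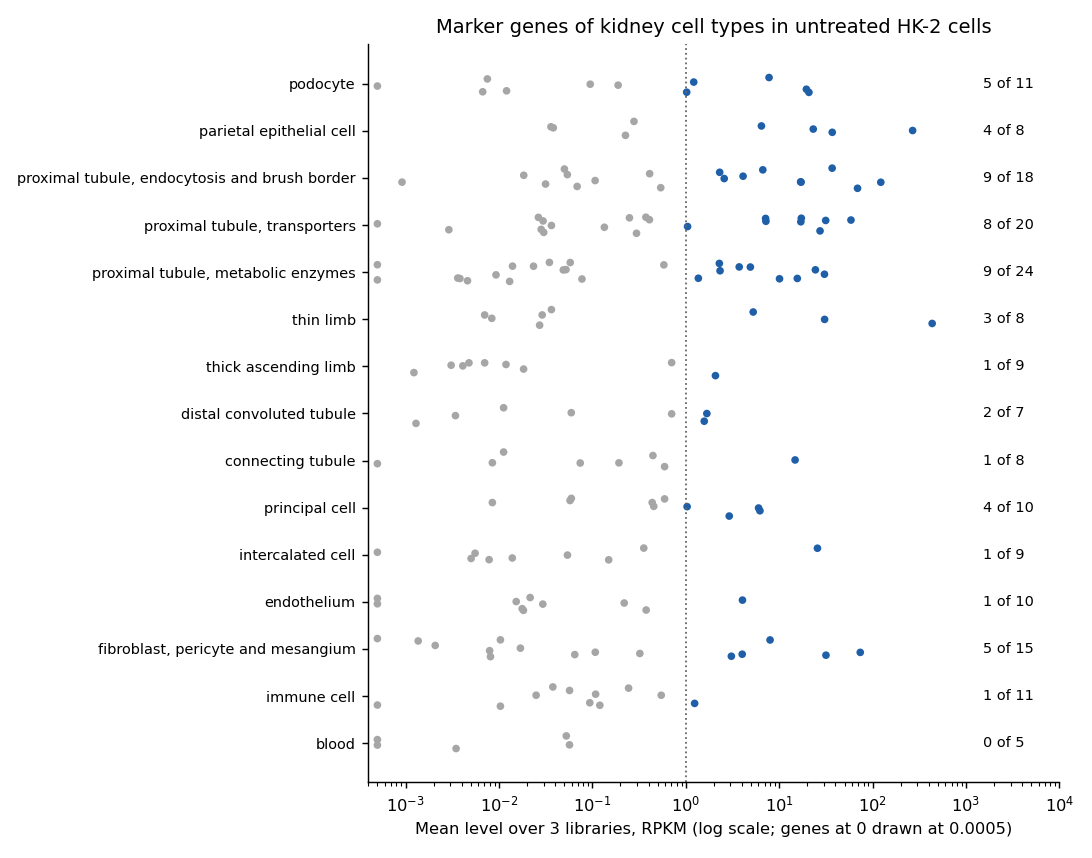
Mean level in RPKM over the 3 untreated libraries, on a log scale, for marker genes of 15 kidney cell types and segments. Each point is a gene, blue at or above 1 RPKM and grey below it. The numbers at the right count the blue points, from 9 of 18 for proximal tubule endocytosis and brush border to 0 of 5 for blood.

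Few markers of the thick ascending limb, distal convoluted tubule, connecting tubule and intercalated cells were members, and principal cells had a share like that of the proximal tubule transporters. The counts at or above 1 RPKM were 1 of 9 (11.1%) for the thick ascending limb, 2 of 7 (28.6%) for the distal convoluted tubule, 1 of 8 (12.5%) for the connecting tubule, 1 of 9 (11.1%) for intercalated cells and 4 of 10 (40%) for principal cells, beside 64.6% of protein-coding genes. SLC12A1, the furosemide-sensitive cotransporter that defines the thick limb, had 9 reads over the 3 libraries, and SLC12A3, its thiazide-sensitive relative in the distal convoluted tubule, had 0.0595 RPKM. The thick limb gene that was a member was CLDN16 (2.22, 1.81 and 2.20 RPKM), a claudin of the paracellular magnesium path. In the principal cell list, SCNN1A, the alpha subunit of the epithelial sodium channel, had 6.21 ± 0.491 RPKM, and its partner SCNN1G had 0.00850 RPKM. The vasopressin receptor AVPR2 had 1.05, 1.05 and 0.999 RPKM, just at the level. In intercalated cells the member was CA2 (carbonic anhydrase, 25.6 ± 1.16 RPKM), which the proximal tubule also expresses. The proton pump subunit ATP6V1B1 had 0.00785 RPKM and KIT had no read. UMOD (thick limb), AQP2 and SCNN1B (principal cell) and FOXI1 (intercalated cell) had no value and are outside the counts above.

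The thin limb and the glomerulus gave shares of 37.5% to 50%, also below that of protein-coding genes. SPP1 (osteopontin) had 425, 441 and 435 RPKM and JAG1, a Notch ligand, had 30.6 ± 0.142 RPKM, both on the thin limb list, which held 3 members of 8. The parietal epithelial list held 4 of 8, led by the tight junction gene CLDN1 (267, 262 and 274 RPKM) and by PAX8. The podocyte list held 5 of 11, with the intermediate filament gene NES at 20.8 ± 0.60 RPKM, the cell cycle inhibitor CDKN1C at 19.5 ± 0.952 RPKM and SYNPO, an actin-binding protein, at 7.78 ± 0.239 RPKM. The podocyte's defining genes were at or near 0: NPHS1 (nephrin) had 8 reads in all and WT1 had none.

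Immune, endothelial and blood lists held few members, and the list of fibroblasts, pericytes and mesangium held some high ones. The immune list held 1 of 11, CSF1R (1.24 ± 0.0711 RPKM), while PTPRC, which all leukocytes carry, had no read, and the summed level of the list was 2.37 to 2.58 RPKM in the 3 libraries. The endothelial list held 1 of 10, EHD3 (4.04 ± 0.377 RPKM), with PECAM1 at 0.0295 RPKM and a summed level of 4.44 to 4.99 RPKM. The blood list held 0 of 5, with a sum of 0.0515 to 0.172 RPKM. The list of fibroblasts, pericytes and mesangium held 5 of 15 (33.3%), beside 64.6% of protein-coding genes, with a sum of 118 to 124 RPKM. Most of that sum was LUM, the collagen-binding proteoglycan lumican (76.6, 74.2 and 70.3 RPKM), and MCAM, an adhesion molecule (31.6 ± 0.941 RPKM). RGS5, a regulator of G protein signals that marks pericytes, had 7.98 ± 0.555 RPKM, DCN, the fibroblast proteoglycan decorin, 4.02 ± 0.296 RPKM, and COL1A1 3.07 ± 0.232 RPKM. Of the others on that list, PDGFRB had 0.0648 ± 0.0515 RPKM and PDGFRA, COL1A2 and ITGA8 had 3, 2 and 0 reads in all. In RNA from bulk cells, fewer cells of a type and less RNA per cell cannot be told apart.

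Among transcription factors of the renal lineage, PAX8, LHX1, SALL1 and HOXB7 were members, while the proximal tubule regulator HNF4A and the nephron factors PAX2, EMX2 and POU3F3 were not. Of 29 with a value, 14 were members (48.3%), beside 47.5% of all genes with a symbol and 64.6% of the protein-coding ones. PAX8 led. LHX1 (22.1 ± 0.448 RPKM) and SALL1 (18.7 ± 0.810 RPKM), which act in the early nephron, and HOXB7 (15.04 ± 0.445 RPKM) stood below it, and the ranges of these 4 did not overlap. HNF4A had 6 reads over the 3 libraries, or 0.00365 RPKM, and its relative HNF4G had 1.53 ± 0.119 RPKM. PAX2, the close relative of PAX8, had 0.226 ± 0.0783 RPKM. WT1 and EMX2, factors of the embryonic kidney, had no read.

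Most genes of epithelial junctions were members, and a few mesenchymal genes were very high while others were silent. Of 34 genes of epithelial junction and polarity, 25 were members (73.5%), with a median of 12.6 RPKM over the 34. Of 27 mesenchymal genes 14 were members (51.9%), with a median of 1.45 RPKM over the 27, and 8 were under 0.1 RPKM. Of protein-coding genes with a symbol 64.6% were members, and their median was 2.95 RPKM, so the mesenchymal list lay below both and the epithelial list above both. On the epithelial side, CLDN1 was followed by CDH6, a cadherin of the proximal tubule, with 123, 125 and 119 RPKM, by EPCAM and by CLDN2, the pore-forming claudin of the proximal tubule, with 84.4, 85.9 and 90.1 RPKM. These 4 did not overlap with their neighbours. MAL2, a protein of apical sorting, had 42.3 ± 0.476 RPKM, and the tight junction scaffold TJP1 had 16.4 ± 0.264 RPKM. Below the level were OCLN (occludin, 0.666 ± 0.0816 RPKM) and CLDN7 (0.0427 ± 0.0419 RPKM), which overlaps a gene model of its own strand. RAB25, a small GTPase of epithelial recycling endosomes, had 2 reads in all.

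**Figure D3:**
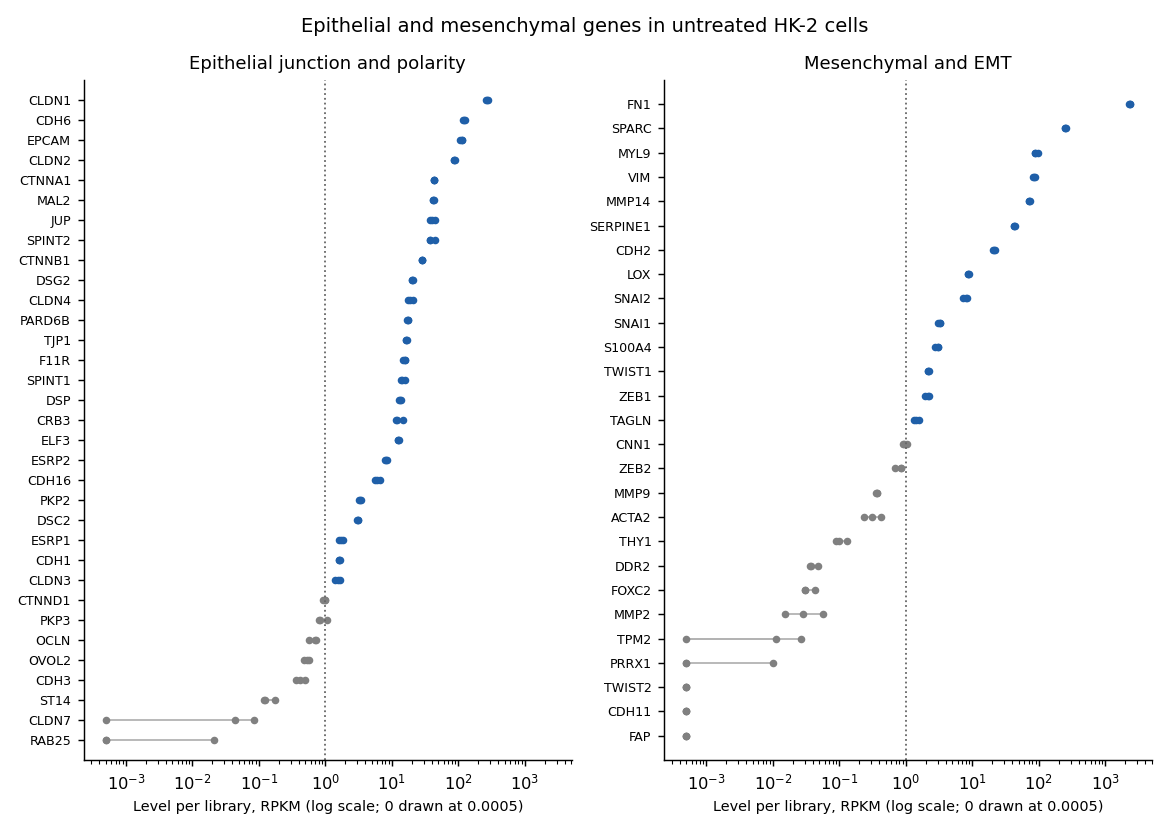
Level in RPKM of each untreated library, on a log scale, for 33 of the 34 genes of epithelial junction and polarity (left, with 1 not shown) and 27 mesenchymal genes (right), each row a gene. Blue genes average at least 1 RPKM and grey genes less. CLDN1 leads on the left at 268 RPKM and FN1 on the right at 2311 RPKM, and TWIST2, CDH11 and FAP are at 0.

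N-cadherin exceeded E-cadherin. CDH2 (N-cadherin, which the proximal tubule itself carries) had 21.7, 20.3 and 21.0 RPKM, and CDH1 (E-cadherin) had 1.65, 1.61 and 1.58 RPKM. The ratio of CDH2 to CDH1 was 12.99 ± 0.336. CDH6 exceeded CDH16, the kidney-specific cadherin (6.01 ± 0.559 RPKM), by 20.5 ± 2.30 times. On the mesenchymal side, FN1 was followed by SPARC (248, 253 and 249 RPKM), a matrix-binding protein, MYL9 (90.9 ± 3.98 RPKM), a myosin light chain of contractile cells, VIM, and the protease MMP14 (71.9 ± 1.53 RPKM). The transcription factors of epithelial-mesenchymal transition were low members: SNAI2 had 7.86 ± 0.626 RPKM, SNAI1 3.197 ± 0.112 RPKM, TWIST1 2.18 ± 0.0215 RPKM and ZEB1 2.10 ± 0.163 RPKM, with ZEB2 at 0.792 ± 0.0941 RPKM. Their opponents in splicing, ESRP2 and ESRP1, had 8.10 ± 0.295 and 1.72 ± 0.116 RPKM. CDH11, TWIST2 and FAP had no read. ACTA2, the smooth muscle actin of myofibroblasts, had 0.322 ± 0.0915 RPKM, though over 10% of its exon bases are shared with genes of the other strand.

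Among 14 keratins, 6 were members (42.9%), beside 64.6% of protein-coding genes. KRT19 had 121, 118 and 135 RPKM, KRT8 65.4, 68.6 and 72.3 RPKM, KRT80 47.6, 45.9 and 49.9 RPKM, and KRT18 32.3, 32.7 and 36.0 RPKM, with no overlap between neighbours. KRT8 and KRT18 pair in the filaments of simple epithelia, and KRT8 exceeded KRT18 by 2.04 ± 0.0492 times at the RNA level. VIM exceeded KRT18 by 2.51 ± 0.197 times. KRT18 shares exon bases with an opposite-strand model of KRT8. KRT17, a keratin of basal and stressed epithelia, had 3 reads in all.

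Most laminin and basement membrane genes were members, and COL4A1 and COL4A2 led the collagens. Of 17 laminin and basement membrane genes, 15 were members (88.2%), and of 21 collagens 12 were (57.1%), beside 64.6% of protein-coding genes. The collagen IV chains COL4A1 and COL4A2 had 119 ± 1.07 and 102 ± 1.96 RPKM and did not overlap. The chains of the mature glomerular membrane, COL4A3 and COL4A4, had 0.0349 ± 0.00748 and 0.128 ± 0.0433 RPKM. COL6A2 (50.9 ± 2.47 RPKM) and COL6A1 (38.1 ± 1.72 RPKM), chains of the beaded collagen VI, were members, while COL6A3, which joins them, had 42 reads in all. COL1A1, a chain of fibrillar collagen I, had 3.07 ± 0.232 RPKM and its partner COL1A2 had 2 reads. The heparan sulphate proteoglycan gene AGRN had 89.7 ± 5.07 RPKM. Of the laminin chains, LAMC1 had 76.1 ± 1.55 RPKM and LAMB1 56.9 ± 0.815 RPKM. LAMB3, a beta chain of laminin in epithelial anchors, had 11.6 ± 0.699 RPKM, or 0.204 ± 0.0124 of LAMB1. Of 20 integrin genes 12 were members (60%), close to the 64.6% of protein-coding genes. ITGAV led with 124, 122 and 118 RPKM, followed by ITGB1 (93.0 ± 2.30 RPKM) and ITGA3 (87.0 ± 3.91 RPKM), which overlapped, and by ITGB3 (66.5 ± 2.56 RPKM), which overlaps a gene model of its own strand. ITGA8, the mesangial alpha chain, had no read, so ITGA3 was at least 32531-fold higher than the 3-read floor of ITGA8 over the group.

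Genes known from injured and repairing tubules were present almost throughout. Of 36 with a value, 33 were members (91.7%), with a median of 46.4 RPKM over the 36. Of protein-coding genes with a symbol 64.6% were members, with a median of 2.95 RPKM. The injury list shares HAVCR1, VIM, SPP1 and the keratins with lists above. The calcium-binding protein S100A6 had 453, 460 and 450 RPKM and exceeded SPP1 in every library, and S100A11 (311 ± 3.88 RPKM), the surface glycoprotein CD24 (303 ± 5.81 RPKM) and S100A10 (226 ± 6.94 RPKM) came next. TIMP1, an inhibitor of matrix proteases, had 143 ± 8.02 RPKM, the neutrophil chemokine CXCL8 had 116 ± 1.75 RPKM, the protease MMP7 had 82.0 ± 5.72 RPKM and the transcription factor SOX4 had 79.2 ± 3.23 RPKM. Other injury genes were low. LCN2 (the urinary marker NGAL) had 1.14, 1.32 and 1.23 RPKM, just above the level, and SOX9, a factor of regenerating tubules, had 2.50 ± 0.242 RPKM. CCL2, the monocyte chemokine, had 0.985 ± 0.105 RPKM, CXCL1 had 0.280 ± 0.0645 RPKM, and PROM1, which marks scattered progenitor-like tubule cells, had 0.0590 ± 0.0254 RPKM.

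Genes of DNA replication and mitosis were high. All 27 proliferation genes with a value were members, with a median of 37.8 RPKM, beside 64.6% and 2.95 RPKM for protein-coding genes. PCNA, the sliding clamp of DNA replication, had 179, 181 and 183 RPKM, MYBL2 91.3 ± 5.19, TOP2A 90.8 ± 3.29, MCM7 83.1 ± 3.43 and MKI67 55.3 ± 2.10 RPKM. HK-2 was immortalised with human papillomavirus oncogenes, whose products act on cell cycle checkpoints, RB among them. Of 13 genes of checkpoints and cyclin-dependent kinase inhibitors, 12 were members (92.3%), beside 64.6% of protein-coding genes. CDKN2A had 18.4, 20.8 and 19.5 RPKM, RB1 17.1 ± 0.492 RPKM and the kinase inhibitor CDKN1A 50.3 ± 2.99 RPKM. The stress cytokine GDF15 had 60.3 ± 6.06 RPKM. TERT, the catalytic subunit of telomerase, had 34 reads over the 3 libraries, or 0.0394 ± 0.0178 RPKM.

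Nearly all genes of glycolysis and lactate were members. Of 22 genes of glycolysis and lactate, 21 were members (95.5%), with a median of 24.3 RPKM, beside 64.6% and 2.95 RPKM for protein-coding genes. GAPDH, ENO1 (313 ± 10.1 RPKM), TPI1 (221 ± 6.61 RPKM) and PKM (217 ± 5.79 RPKM) led. LDHA, which favours lactate, had 103, 102 and 103 RPKM, and LDHB had 1.71, 1.72 and 1.91 RPKM, a ratio of 57.9 ± 3.30. HK2, the inducible hexokinase, stood at 0.335 ± 0.0157 of HK1 (20.7 ± 1.18 RPKM). ALDOA, the aldolase of most cells, had 1.08, 1.05 and 1.10 RPKM, far below its neighbours in the pathway. LDHB and ALDOA both share over 10% of their exon bases with another gene model of the same strand. Such genes were lower as a class: 508 of 1274 protein-coding genes with a same-strand overlap reached 1 RPKM (39.9%), against 9141 of 13869 with no overlap (65.9%), and the part of the authors' counting in this was not tested. Of 22 genes of gluconeogenesis, fatty acid oxidation and PPAR signalling, 14 were members (63.6%), close to the 64.6% of protein-coding genes. The oxidation enzymes ACADVL (54.2 ± 1.67 RPKM), HADHA (48.1 ± 0.988 RPKM) and HADHB (27.1 ± 1.48 RPKM) led, and the gatekeeper CPT1A had 2.01 ± 0.191 RPKM. The regulators PPARA and PPARGC1A had 3.57 ± 0.243 and 3.35 ± 0.224 RPKM. CD36, a fatty acid importer, and FABP1, a binding protein of human proximal tubule, had 23 and 2 reads in all.

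Of 21 antioxidant genes 16 were members (76.2%), beside 64.6% of protein-coding genes, with ferritin at the top. FTH1, the heavy chain, had 372, 402 and 407 RPKM, well below FTL in every library. PRDX1 (223 ± 2.36 RPKM), TXN (163 ± 2.80 RPKM), GPX4 (117 ± 5.11 RPKM) and GPX1 (112 ± 8.01 RPKM) followed. The regulator NFE2L2 and its inhibitor KEAP1 had 29.7 ± 0.365 and 22.8 ± 1.51 RPKM. Its targets were uneven: NQO1 had 22.7 ± 1.05 and HMOX1 14.6 ± 0.496 RPKM, while SRXN1 had 0.161 ± 0.0543 RPKM. AKR1C1 (0.0861 RPKM) and AKR1C2 (0.0204 RPKM) were also low, but they are near copies of each other, so both values are uncertain. FTH1, PRDX1, NQO1, NFE2L2 and SRXN1 share over 10% of their exon bases with another gene.

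Of 23 growth factor receptor genes 17 were members (73.9%), beside 64.6% of protein-coding genes. MET, the hepatocyte growth factor receptor, had 69.7, 67.2 and 67.6 RPKM, AXL had 59.6, 62.2 and 60.7 RPKM, EGFR had 33.7, 33.4 and 32.9 RPKM and EPHA2 had 27.4 ± 1.48 RPKM, with no overlap between neighbours. Receptors of the transforming growth factor beta superfamily, to which GDF5 belongs, were present in these untreated cells. TGFBR2 had 19.5 ± 0.607 RPKM and the type II bone morphogenetic protein receptor BMPR2 had 12.8 ± 0.641 RPKM. The type I receptor BMPR1A had 6.50 ± 0.0616 RPKM, ACVR1 3.81 ± 0.231 RPKM, and BMPR1B, the preferred type I receptor of GDF5, 2.85, 2.70 and 2.46 RPKM. RET, the receptor of the ureteric bud, had 0.0550 ± 0.00635 RPKM and PDGFRA had 3 reads. Of 14 hormone and nephron signalling receptors 7 were members (50%), beside 64.6% of protein-coding genes. KL (klotho, the coreceptor of a phosphate-wasting hormone) had 9.85, 9.53 and 9.77 RPKM. The prostaglandin receptor PTGER2 had 8.86 ± 0.169 RPKM and the glucocorticoid receptor NR3C1 had 6.57 ± 0.251 RPKM. The vitamin D receptor VDR was just below the level at 0.889 ± 0.0834 RPKM. The parathyroid hormone receptor PTH1R and the calcium-sensing receptor CASR had 21 and 2 reads in all.

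Promoter sequence was a feature that the choice of members did not use. RefSeq promoters, from 250 bases before to 50 after the start of transcription on GRCh38.p14, matched 8825 of the 10781 protein-coding members, or 81.9%. Their median ratio of observed to expected CpG was 0.852, and 85.6% lay above 0.6. The ratio was 0.868 for members at or above 10 RPKM and 0.843 for members from 1 to under 10 RPKM. Motifs were searched on both strands. TATAAA, the TATA box, was in 5.03% of members' promoters, in 7.49% of those of all 13198 matched protein-coding genes with a symbol and in 11.95% of the 27305 promoters in the table. The GC box GGGCGG was in 72.1%, 64.2% and 44.6% of these sets. CCAAT was in 37.3%, 36.3% and 35.7%, and the AP-1 site TGANTCA in 4.28%, 5.14% and 7.76%. The sets are nested, with the members inside both of the others. Genes below 1 RPKM had a promoter for under 80% of their number, so a comparison with them is void. The 13198 were themselves 79.1% of protein-coding genes with a symbol. Gaps between members and the larger sets rest on promoters outside the members, so no conclusion is drawn from them. The promoters of a high gene with few CpG and of a near-silent gene with many are shown, both from the 6 markers. HAVCR1 (minus strand, chr5:157059067-157059366) has 3 CpG and none of the 4 motifs, while LRP2 (minus strand, chr2:169362485-169362784) has 23 CpG and a GC box. Both are written 5′ to 3′ in lower case with each CG in capitals.
HAVCR1: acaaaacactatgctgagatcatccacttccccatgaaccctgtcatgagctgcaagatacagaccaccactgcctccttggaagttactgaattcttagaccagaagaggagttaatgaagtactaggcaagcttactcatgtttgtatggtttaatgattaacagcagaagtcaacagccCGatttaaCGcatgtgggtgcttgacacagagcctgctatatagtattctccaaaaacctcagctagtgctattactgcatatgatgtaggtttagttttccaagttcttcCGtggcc
LRP2: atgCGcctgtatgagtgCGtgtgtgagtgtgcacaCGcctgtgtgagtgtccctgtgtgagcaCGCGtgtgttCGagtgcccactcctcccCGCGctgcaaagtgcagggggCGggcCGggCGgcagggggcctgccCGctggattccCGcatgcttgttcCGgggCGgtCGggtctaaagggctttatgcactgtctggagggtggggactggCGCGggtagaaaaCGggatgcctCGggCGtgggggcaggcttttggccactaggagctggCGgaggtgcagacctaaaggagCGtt
The matched letters are a description of the window, and no measurement of methylation or factor binding was part of the data.

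The spread between the 3 libraries was small for most members. The median coefficient of variation was 5.67% for genes from 1 to under 10 RPKM, 3.38% from 10 to under 100 RPKM, 2.74% from 100 to under 1000 RPKM and 4.32% for the 20 genes at or above 1000 RPKM. The counting error of the reads alone had medians of 3.23%, 1.47%, 0.643% and 0.235% in those classes. Below the level, from 0.1 to under 1 RPKM, the median spread was 27.6%. Of 3936 members at or above 10 RPKM, 12 had a coefficient of variation above 20%. The most variable was RN7SL1, the RNA of the signal recognition particle, with 20.7, 41.3 and 13.6 RPKM. MIR4477B had 16.5, 8.21 and 8.82 RPKM and MIR570 13.3, 26.1 and 16.8 RPKM. The pseudogenes PPIAP22 (67.6, 99.4 and 55.5 RPKM) and SNRPGP15 (14.4, 8.49 and 11.4 RPKM) came next, with the ribosomal protein RPL21 (129, 137 and 83.6 RPKM). These 6 are small RNA genes, or genes with near copies elsewhere in the genome.

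**Figure D4:**
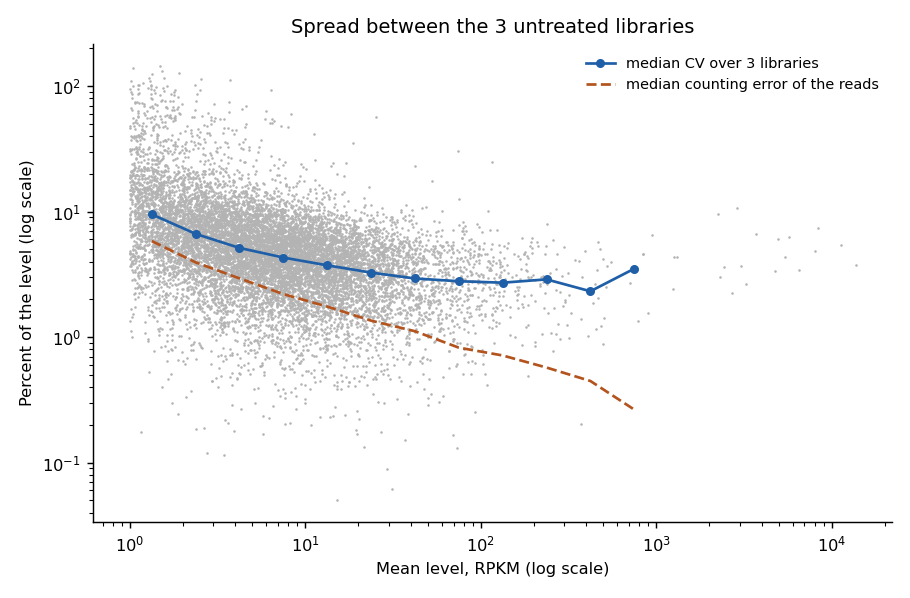
Coefficient of variation over the 3 untreated libraries, in percent, against mean level in RPKM for the members, both on log scales. Grey points are genes, and up to 1000 RPKM the blue line is their median by level and the dashed line the median counting error of the reads. The median spread is 2.74% at 100 to under 1000 RPKM and 4.32% at or above 1000 RPKM, above the counting error in both.

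The level of 1 RPKM cut through a continuous range. Just inside it were DNAI4 (0.915, 0.984 and 1.10 RPKM), a dynein intermediate chain of cilia, and FAM110C (0.908, 1.08 and 1.01 RPKM). Just outside were the pseudogenes CLEC4O (0.970, 0.831 and 1.199 RPKM) and RNA5SP219 (0.553, 1.18 and 1.26 RPKM). The values of all 4 genes overlapped.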

How the data were processed

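Total RNA of HK-2 cells was isolated in TRIzol and sequenced from stranded Illumina libraries, per the labels' protocols. The tools HISAT2 and DESeq2 and the build GRCh38 are named in the submitters' processing notes, without versions. Which program assigned reads to genes, and with which annotation, is not given in the sources used here. Values per library stand in the deposited table under a header that names no unit. Their steps showed them to be RPKM on the authors' totals of reads assigned to genes. The authors also deposited a mean signal per group, which is reads over a size factor, and this was used to recover reads. The authors' deposited log2 fold change and p-value columns compare GDF5 with control and were not used.

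Reads were recovered from the RPKM steps with Python 3.11.15, numpy 2.4.6 and pandas 2.3.3, and the recovery was tested on simulated data. Of 31936 values recovered at under 20 reads, 100% came out whole to a tolerance of 0.1. Of these 64.1% were even, so both mates may often have been counted, and counting errors given here may be too small. For 81.3% of 9737 genes, the length implied by the steps matched the summed exons of GENCODE 29 to 5%. Every gene in the table has a read in at least 1 of the 6 libraries, and genes without a row (3071 of 19922 protein-coding genes of GENCODE 29 and 50 of 520 names on the lists) were not analysed here.

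The design held no contrast, so there was no test and no pseudocount enters a printed level. The members and the 30 gene lists were chosen with earlier results of these data known. Genes named are the 6 markers, the 15 highest nuclear protein-coding and 3 highest mitochondrial genes, up to 4 highest and 4 lowest of each list (all members for a list of at most 8), the 2 genes on each side of 1 RPKM and the 6 most variable at or above 10 RPKM. Other genes named, and the pairs set against each other, were chosen after their values could be seen. A count of 3 reads was taken as the floor. Exon overlap was counted from GENCODE 29 at over 10% of a gene's exon bases. The alternatives tried were a level of 0.5 or 2 RPKM, every library at the level, TPM, median-of-ratios scaling, mitochondrial genes left out, and each library left out in turn. Some genes that this rule selects are not reported here by name, although counts over the lists include them.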

Additional observations from a re-analysis of the deposited data

How the results depend on the processing

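The number of members was 11869, and it was 13541 at a level of 0.5 RPKM, 10028 at 2 RPKM, 11487 where every library had to reach the level, 12096 with mitochondrial genes left out of the totals and 15031 with values rescaled to TPM. Leaving out 1 library at a time gave 11872 to 11890 members, of which 11783 to 11797 were among the 11869. Of 254 recomputed values, 235 were counted as kept, within 1.5 times of their count or within 1 SD of their level, and 19 moved. Some of these outcomes were fixed in advance. Leaving out 1 of 3 libraries always shifts a mean by less than 1 SD, so no marker level or top-100 share could move that way. The median CpG ratios at 0.5 and 2 RPKM (0.848 and 0.856, against 0.852) were counted as kept without a criterion. The 6 markers moved in TPM, and 12 of 210 list counts moved, mostly of short lists. Connecting tubule markers at the level numbered 2 at 0.5 RPKM and 3 in TPM, against 1. Thick ascending limb markers numbered 2 at 0.5 RPKM and 2 in TPM, against 1, and intercalated cell markers 2 in TPM, against 1. Principal cell markers numbered 7 in TPM, against 4, distal convoluted tubule markers 0 at 2 RPKM, against 2, and podocyte markers 3 at 2 RPKM, against 5. The share of RPKM in the 100 highest genes was 21.6% with mitochondrial genes left out, against 44.9%. TPM values are larger than RPKM by construction here, because the RPKM of a library summed to 271700 to 279121. No paired analysis was possible because no groups were compared. Depth limits statements on silent genes to the floor of 3 reads, and the exon overlaps and near copies named in the text limit single low values.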
